A study of Mus musculus with 9 samples.

Results

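The interferon response and nucleic acid sensor genes examined here are a set of 42 listed genes that covers interferon-stimulated genes, the transcription factors that act on them, the type I interferon receptor and sensors of double-stranded RNA or DNA. Members were chosen by gene symbol, with earlier results of these data known. The shares of calls below therefore describe the list and were not tested against all clusters. Of the 42 genes, 40 were measured by 44 transcript clusters (the probe groups of the array) that carry 1 gene symbol, out of 23002 clusters tested across the genome. Irf1, Ifitm1 and Ifitm2 each had several clusters, which are given separately. Isg15 was measured only by a cluster shared with Gm9706, and Ifi44 was not analysed here. The study profiled mRNA of mouse embryonic stem (ES) cells on Affymetrix mouse gene 1.0 ST arrays, and asked which mRNAs respond to loss of Dgcr8 but not to loss of Dicer. There were 3 wild-type (WT, line v6.5) arrays, 3 Dgcr8 knockout (Dgcr8 KO) arrays and 3 Dicer knockout (Dicer KO) arrays, all from cells with no added treatment named. In the Dgcr8 KO cells a deletion of an exon leads to a premature stop codon, whereas the Dicer allele is not given in the sources used here. The 3 arrays of a genotype are labelled as replicates from plates seeded in triplicate, so the p-values measure the spread between these cultures, which may be partly technical. The sources used here do not say how many independent lines a genotype comprised. A difference between genotypes therefore cannot be told apart from a difference between cell lines.

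Type I interferons signal through the receptor chains Ifnar1 and Ifnar2 to the kinases Jak1 and Tyk2, and the resulting complex of Stat proteins with Irf9 activates genes that carry an interferon-stimulated response element (ISRE) in their promoters. The RIG-I-like receptors Ddx58 (RIG-I) and Ifih1 (MDA5) recognise double-stranded RNA in the cytoplasm and signal through the mitochondrial adaptor Mavs to Irf3, which induces interferon genes. Pluripotent cells are known for a weak interferon response, and Dgcr8 and Dicer are both needed to make canonical microRNAs.

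Many interferon-stimulated genes were higher in the mutants than in WT ES cells, led by Zbp1, a sensor of Z-form nucleic acids, and Oas2, a double-stranded RNA-dependent synthetase of oligoadenylates. Relative to WT, 20 of 44 member clusters (45.5%, 17 genes) were higher in Dgcr8 KO, where 15.7% of all 23002 clusters were higher. Only 3 member clusters (6.82%) were lower in Dgcr8 KO, where 17.3% of all clusters were lower. In Dicer KO, 20 member clusters (19 genes) were higher against 17.8% of all clusters. A further 4 (9.09%) were lower in Dicer KO, against 19.1% of all clusters. These calls were made with limma at an adjusted p (Benjamini-Hochberg over all 23002 clusters) under 0.05. The median log2 ratio of the members to WT was 0.20 (Dgcr8 KO) or 0.27 (Dicer KO), beside -0.01 and -0.06 over all clusters. Both mutants were compared with the same 3 WT arrays. Since the arrays measure bulk RNA, a higher level cannot be told apart from a larger share of cells that make the transcript.

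**Figure D1:**
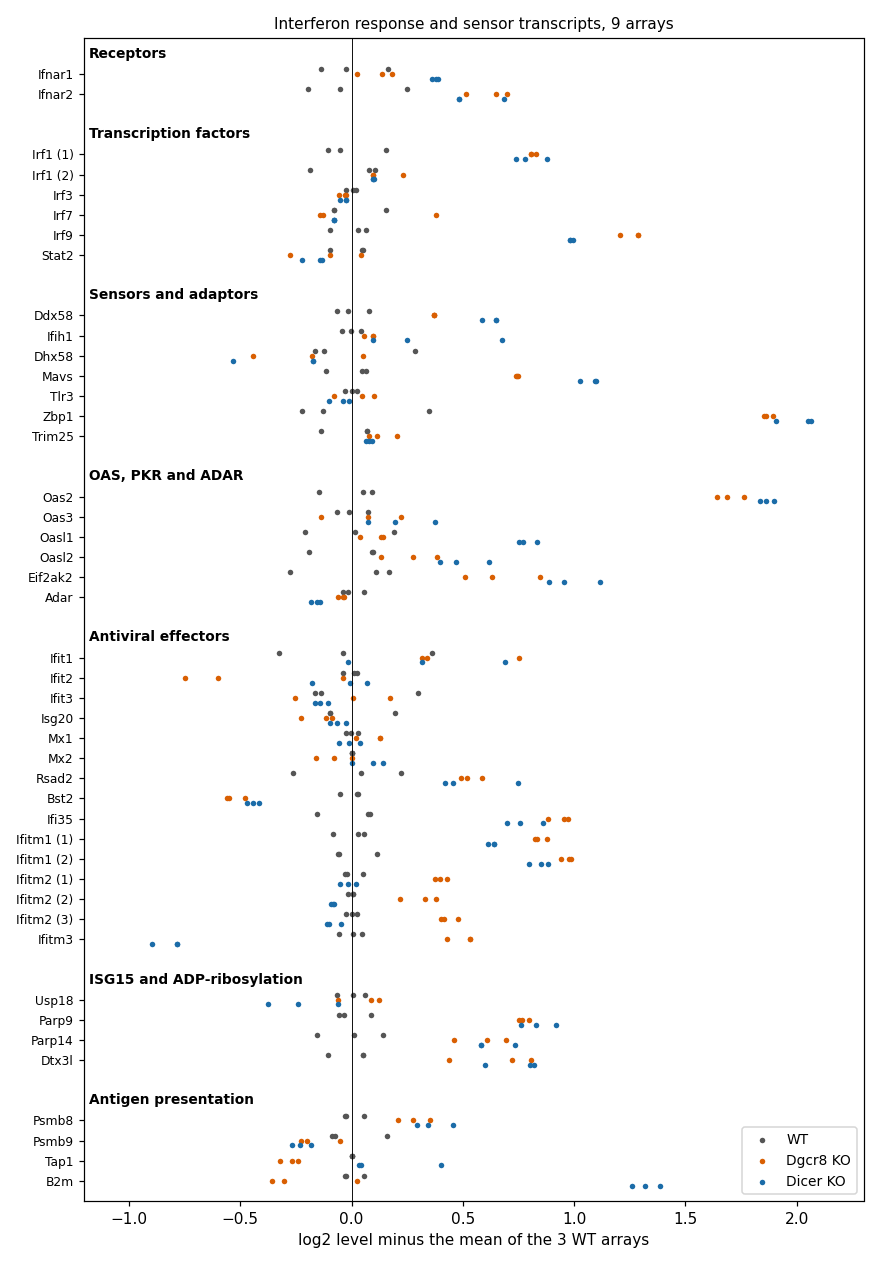
Each of the 44 member clusters is a line, grouped by role, and each point is 1 array (grey WT, orange Dgcr8 KO, blue Dicer KO) placed on the x axis by its log2 level minus the mean of the 3 WT arrays; a number in brackets separates clusters of the same gene. Zbp1 and Oas2 of both mutants lie farthest to the right, Bst2 of both mutants lies to the left of WT, and Ifitm3 lies to the right of WT in Dgcr8 KO and to the left in Dicer KO.

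Markers were read to check the labelled cell type and other cells that cultures might hold. The mean log2 level of 10 ES cell markers was 11.2 to 11.6 on all 9 arrays. In each mutant 7 of them were called higher than WT, among them Nanog at log2 ratios of 0.77 and 1.10, and 1 lower, Utf1. Their summed linear level ran from 33600 to 34800 in WT, from 39900 to 40600 in Dgcr8 KO and from 43700 to 44100 in Dicer KO. Of 15 fibroblast and feeder cell markers, Fstl1 alone was higher in the mutants, by log2 ratios of 2.10 and 1.84, and the summed linear level of the list ran from 1310 to 1450 in WT, from 2440 to 2600 in Dgcr8 KO and from 2200 to 2270 in Dicer KO. Dcn of the same list was called lower by limma in Dicer KO than in both WT and Dgcr8 KO, though SAM did not call it against WT. The collagens Col1a1, Col1a2 and Col3a1 were not called. Of 10 immune cell markers, Cd68 (0.98 and 1.6) and Laptm5 (0.85 and 1.26), which encode lysosomal proteins, were higher in both mutants, and Ptprc, Csf1r, Adgre1, Itgam, Tyrobp, Fcer1g, Cd14 and Lyz2 were not called. The summed linear level of the immune list ran from 1310 to 1340 in WT. It ran from 2130 to 2220 in Dgcr8 KO and from 2920 to 2940 in Dicer KO. All 3 sums thus moved with the members that were higher in the mutants. Mean log2 levels of the fibroblast list overlapped (WT 5.91 to 6.08, Dgcr8 KO 5.99 to 6.15, Dicer KO 6.02 to 6.09). Those of the immune list did not (WT 6.01 to 6.1, Dgcr8 KO 6.11 to 6.25, Dicer KO 6.26 to 6.32). Median log2 ratios to WT (Dgcr8 KO, then Dicer KO) were -0.03 and -0.06 for the fibroblast list. For the immune list they were -0.05 and -0.06. The part of these markers in the results of the members was not tested. The Dgcr8 cluster read 9.76 to 9.82 in WT, 8.74 to 8.96 in Dgcr8 KO and 9.98 to 9.99 in Dicer KO, and the Dicer1 cluster 10.18 to 10.23 in WT, 10.39 to 10.47 in Dgcr8 KO and 8.32 to 8.43 in Dicer KO, so each knockout was lowest in its own gene. Arrays of a genotype correlated at r = 0.996 to 0.998 over the clusters tested and arrays of different genotypes at 0.978 to 0.991. In the spread among replicates, the leading component (40.8% of that spread) set WT replicate 1 apart from Dgcr8 KO replicate 2. Without these arrays, 20 member clusters were higher and 2 lower than WT in Dgcr8 KO, against 20 higher and 3 lower in Dicer KO, and in the direct comparison 7 were higher and 8 lower in Dgcr8 KO.

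The promoters of the members were read from RefSeq windows (GRCm38.p6) that run from 250 bases before to 50 bases after a transcription start. Windows were present for 34 members. There was no entry for Dhx58, Zbp1, Oas2, Mx1, Mx2, Usp18, Parp9 and Parp14. The ISRE was searched as GAAA, any 2 bases and GAAA again (on the other strand TTTC, any 2 bases and TTTC), and the gamma-activated site (GAS) as TTCNNNGAA, which is its own reverse complement. Both strands were read, overlapping matches were allowed, and the ISRE and GAS letters can overlap each other. An ISRE match was found for 13 of 34 members (38.2%), beside 3.99% of 27025 genes and 3.44% of all 32851 windows. A GAS match was found for 11 of 34 members (32.4%), beside 9.55% of genes and 8.3% of all windows. Because the list was chosen for the interferon response, these shares describe that choice and were not tested against all genes. Of the 17 members with a window that were higher than WT in at least 1 mutant, 6 held an ISRE match, and so did 6 of the 15 that were higher in neither. A GAS match was held by 7 of those 17 and by 4 of those 15. The split covers members with a cluster of their own and so leaves out Isg15, which held an ISRE match. Among members with an ISRE match are thus genes that were higher, lower and not called, and a match here describes letters and not a bound site. The stretches below, in capitals where the ISRE letters or, for Irf1, the GAS letters lie, show a pair of not called genes (Ifit1 and Ifit3), a gene lower in both mutants (Bst2), a gene higher in both (Rsad2), genes that separated the mutants (Ifitm2 and B2m) and the transcription factor Irf1.
Ifit1: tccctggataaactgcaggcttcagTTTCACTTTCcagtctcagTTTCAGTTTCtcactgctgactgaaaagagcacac
Ifit3: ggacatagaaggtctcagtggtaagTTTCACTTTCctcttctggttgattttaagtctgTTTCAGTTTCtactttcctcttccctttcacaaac
Bst2: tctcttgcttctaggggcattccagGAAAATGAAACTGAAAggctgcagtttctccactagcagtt
Rsad2: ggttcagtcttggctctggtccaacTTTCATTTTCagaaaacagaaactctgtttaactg
Ifitm2: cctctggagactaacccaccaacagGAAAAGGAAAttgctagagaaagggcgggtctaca
B2m: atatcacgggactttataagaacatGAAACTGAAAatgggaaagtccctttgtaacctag
Irf1: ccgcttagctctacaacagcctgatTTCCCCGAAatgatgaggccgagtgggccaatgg
These stretches lie in GRCm38.p6 at chr19:34640760-34640838 (plus strand) for Ifit1, chr19:34583348-34583441 (plus) for Ifit3, chr8:71537562-71537627 (minus) for Bst2, chr12:26456538-26456597 (minus) for Rsad2, chr7:140955973-140956032 (minus) for Ifitm2, chr2:122147523-122147582 (plus) for B2m and chr11:53769899-53769957 (plus) for Irf1. Each is written 5′ to 3′ on the strand of its gene and ends before the annotated start.

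Ifnar1 and Ifnar2 encode the chains of the type I interferon receptor and are neighbours on chromosome 16. Ifnar2 had log2 levels of 6.76, 7.21 and 6.90 in WT (the values of replicates 1, 2 and 3, as in every such list here), 7.61, 7.65 and 7.47 in Dgcr8 KO, against 7.44, 7.64 and 7.44 in Dicer KO. Every mutant array was above every WT array, and the mutants overlapped each other. The log2 ratio to WT was 0.62 ± 0.11 (SE, limma adjusted p = 0.0019, n = 3 arrays a genotype) in Dgcr8 KO and 0.55 ± 0.11 (adjusted p = 0.0035) in Dicer KO. Ifnar1 read 8.34, 8.64 and 8.45 in WT, 8.50, 8.66 and 8.61 in Dgcr8 KO, against 8.86, 8.83 and 8.85 in Dicer KO. Only in Dicer KO did the arrays separate from WT, by a log2 ratio of 0.37 (limma adjusted p = 0.0036), and the direct difference of Dgcr8 KO from Dicer KO was -0.26 (adjusted p = 0.034). That direct call was lost without Dgcr8 KO replicate 1 or 3 and on leaving out any single Dicer KO array.

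Of the 6 clusters of transcription factors, 2 (33.3%) were higher in each mutant, beside 15.7% and 17.8% of all clusters. By limma 0 were lower, beside 17.3% and 19.1% (0 also at an unadjusted p under 0.05 and 0 by SAM). SAM is the permutation test named in the study's methods. These counts are too few to set the group apart. Irf9 encodes the DNA-binding subunit that joins the Stat proteins at the ISRE. Its log2 level was 7.24, 7.36 and 7.40 in WT, 8.54, 8.62 and 8.62 in Dgcr8 KO, with 8.32, 8.33 and 8.32 in Dicer KO. The 3 genotypes formed separate, narrow groups with Dgcr8 KO highest. Against WT, Irf9 rose 2.39-fold in Dgcr8 KO (limma adjusted p = 2.6e-07) and 1.98-fold in Dicer KO (adjusted p = 7.2e-07). The direct difference between the mutants was 0.27 (95% interval 0.15 to 0.39, limma adjusted p = 0.0054). Irf1, a transcription factor that acts on both interferon and interferon-stimulated genes, read 8.08, 8.34 and 8.13 in WT, 8.99, 9.01 and 8.99 in Dgcr8 KO, and 9.06, 8.96 and 8.92 in the Dicer KO arrays on cluster 10376060. Both mutants were above WT, by log2 ratios of 0.81 (1.76-fold, limma adjusted p = 1.9e-05) and 0.80 (1.74-fold, adjusted p = 1.7e-05). The other Irf1 cluster, 10385870, gave 0.14 and 0.10 and was not called (limma adjusted p = 0.23 and 0.37), so the clusters of this gene disagreed.

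Irf3, Irf7 and Stat2 were called in neither mutant. Irf3, which Mavs activates at the protein level, read 8.02, 7.97 and 8.01 in WT, 7.94, 7.97 and 7.97 in Dgcr8 KO, against 7.97, 7.97 and 7.95 in Dicer KO. The genotypes overlapped, and the 95% interval of the log2 ratio ran from -0.13 to 0.06 in each mutant. The same deposited value recurred on WT replicate 2, Dgcr8 KO replicate 3 and Dicer KO replicates 1 and 2. Irf7, an interferon-inducible amplifier of the response, had ratios to WT of 0.04 (Dgcr8 KO) and -0.08 (Dicer KO) on the log2 scale, and Stat2, the partner of Irf9, gave -0.11 and -0.16.

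Of the 7 sensor and adaptor clusters, Ddx58, Mavs and Zbp1 (42.9%) were higher in both mutants, beside 15.7% and 17.8% of all clusters. Zbp1 read 6.51, 5.94 and 6.03 in WT, 8.05, 8.02 and 8.01 in Dgcr8 KO, with 8.22, 8.21 and 8.07 in Dicer KO. The WT arrays spread over more than the mutant arrays did, yet all 6 mutant arrays were well above them. The rise was 3.65-fold in Dgcr8 KO (limma adjusted p = 4.2e-06) and 4.02-fold in Dicer KO (adjusted p = 2e-06). The direct difference of -0.14 (95% interval -0.43 to 0.15) was not called.

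Mavs, the adaptor of the RIG-I-like receptors, read 8.05, 8.23 and 8.21 in WT, 8.91, 8.91 and 8.90 in Dgcr8 KO, and 9.26, 9.26 and 9.19 in the Dicer KO arrays. The groups did not overlap and rose in the order WT, Dgcr8 KO and Dicer KO. The log2 ratio to WT was 0.74 ± 0.056 (SE, limma adjusted p = 8e-06) in Dgcr8 KO and 1.07 ± 0.056 (adjusted p = 5.8e-07) in Dicer KO, and the direct difference was -0.33 (adjusted p = 0.0025). Ddx58 followed the same order, with 8.86, 9.0 and 8.91 in WT, 9.29 on each Dgcr8 KO array and 9.57, 9.51 and 9.57 in Dicer KO. Its log2 ratio to WT was 0.37 (limma adjusted p = 0.00032) in Dgcr8 KO and 0.63 (adjusted p = 8.5e-06) in Dicer KO, with a direct difference of -0.26 (adjusted p = 0.0047).

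Within the sensor and adaptor group, Ifih1, Tlr3 and Dhx58 were dim. Ifih1 read 5.15, 5.19 and 5.10 in WT, 5.24, 5.24 and 5.20 in Dgcr8 KO, against 5.82, 5.24 and 5.40 in Dicer KO. All mutant arrays lay above WT, but a single Dicer KO array carried most of the gap, and the log2 ratios of 0.08 and 0.34 were not called (limma adjusted p = 0.69 and 0.057). In Dicer KO the rise was called in 6 of 23 other settings, among them SAM, each other scaling of the arrays and leaving out Dicer KO replicate 2. Tlr3, the endosomal receptor of double-stranded RNA, read 4.60, 4.58 and 4.55 in WT, 4.67, 4.49 and 4.62 in Dgcr8 KO, with 4.54, 4.47 and 4.56 in Dicer KO. These overlapped, and with Ifih1 and Dhx58, a regulator of RIG-I-like receptors, Tlr3 was among the 9 member clusters in the dimmest 25% of all clusters (mean log2 level under 5.49), where a change is hard to see. Trim25, a ubiquitin ligase that acts with RIG-I, was well expressed and gave log2 ratios of 0.13 and 0.08 that were not called.

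**Figure D2:**
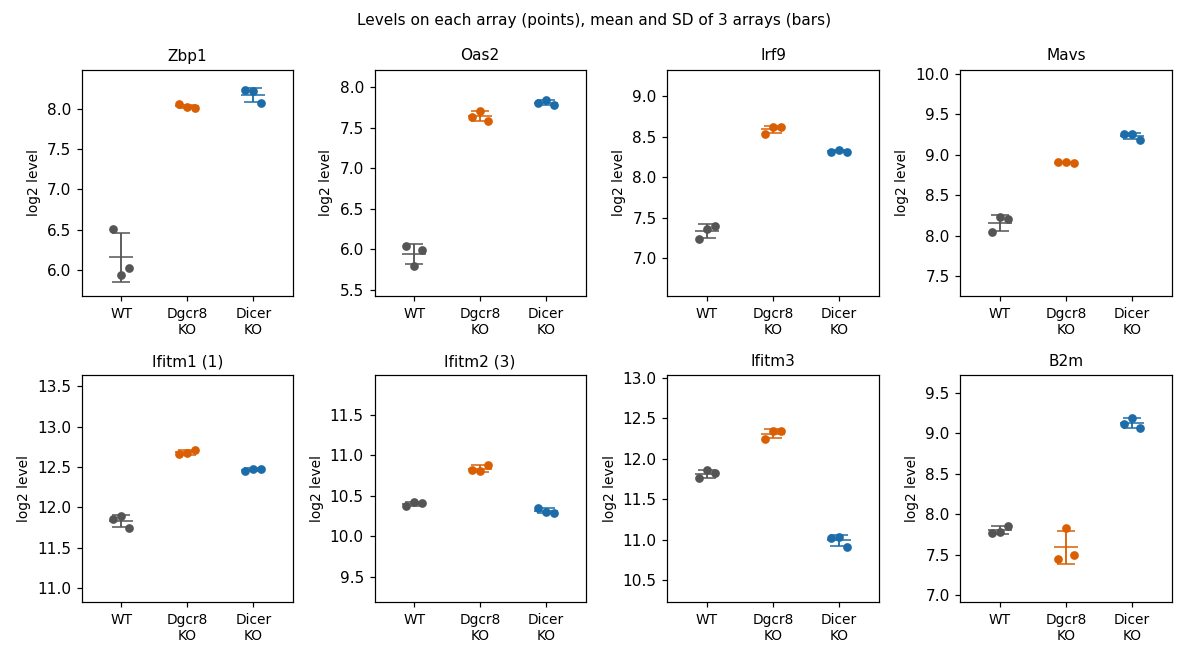
The y axis is the log2 level, each point is 1 array, and the bars give the mean and SD of 3 arrays for Zbp1, Oas2, Irf9, Mavs, Ifitm1 (cluster 10558769), Ifitm2 (cluster 10569014), Ifitm3 and B2m; all panels span the same log2 range, and levels are not comparable between panels. Zbp1, Oas2, Irf9, Mavs and Ifitm1 are above WT in both mutants, Ifitm2 only in Dgcr8 KO and B2m only in Dicer KO, and Ifitm3 is above WT in Dgcr8 KO at 12.24 to 12.34 and below WT in Dicer KO at 10.92 to 11.03.

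Oas2, Oas3, Oasl1 and Oasl2 lie in the Oas and Oasl groups of chromosome 5 and were not called alike. Oas2 read 6.03, 5.80 and 6.0 in WT, 7.63, 7.71 and 7.59 in Dgcr8 KO, and 7.81, 7.84 and 7.78 in the Dicer KO arrays. All mutant arrays were above WT, and those of Dicer KO lay just above those of Dgcr8 KO. The difference from WT was 3.25-fold and 3.64-fold (limma adjusted p = 1.8e-07 and 6e-08), while the direct difference of -0.17 was not called (adjusted p = 0.11), though it was in 5 of 24 other settings, among them SAM and without WT replicate 2. Its neighbour Oas3, another oligoadenylate synthetase, gave log2 ratios of 0.05 and 0.21 with overlapping arrays and was not called.

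Oasl1, an OAS-like protein without synthetase activity, read 7.07, 6.67 and 6.90 in WT, 7.02, 7.01 and 6.92 in Dgcr8 KO, against 7.63, 7.65 and 7.71 in Dicer KO. Dgcr8 KO overlapped WT, and Dicer KO was above both. The log2 ratio of Dicer KO to WT was 0.79 ± 0.09 (SE, limma adjusted p = 9.7e-05), that of Dgcr8 KO was 0.10 (not called), and the direct difference was -0.68 (adjusted p = 0.00053). Oasl2 was called in Dicer KO at 0.49 (limma adjusted p = 0.0032) and not in Dgcr8 KO at 0.26 (adjusted p = 0.069), and its direct difference of -0.23 was not called.

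Eif2ak2 encodes PKR, the kinase that halts translation on binding double-stranded RNA. Its log2 level was 6.70, 7.08 and 7.14 in WT, 7.49, 7.82 and 7.61 in Dgcr8 KO, with 7.86, 8.09 and 7.93 in Dicer KO. Both mutants were above WT on every array, with log2 ratios of 0.66 ± 0.13 (SE, limma adjusted p = 0.0028) and 0.99 ± 0.13 (adjusted p = 0.00021). All Dgcr8 KO arrays lay below those of Dicer KO. The direct difference of -0.32 was not called (limma adjusted p = 0.1), though it was in 5 of 24 other settings. Adar, which deaminates adenosines of double-stranded RNA and limits its sensing, was 8.75, 8.82 and 8.73 in WT, 8.71, 8.73 and 8.73 in Dgcr8 KO, and 8.61, 8.58 and 8.62 in the Dicer KO arrays. Only the Dicer KO arrays were below WT, by a log2 ratio of -0.16 (limma adjusted p = 0.019), a call that was lost by SAM, after centring each array on its median, and without WT replicate 2 or Dicer KO replicate 1 or 2.

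Of the 15 clusters of antiviral effectors, 8 (53.3%) were called higher than WT in Dgcr8 KO, beside 15.7% of all clusters. They stand for 5 genes, with every cluster of Ifitm1 and Ifitm2 among them. In the same mutant 2 (13.3%) were lower, beside 17.3%. In Dicer KO 4 (26.7%, 3 genes) were higher and 2 (13.3%) lower, which is near the 17.8% and 19.1% of all clusters. Ifit3, Mx1 and Mx2, much-used indicators of interferon signalling, were called against WT in neither mutant by limma or SAM, and Ifit1 was not called by limma. Ifit1, which binds RNA that lacks a methylated cap, read 5.54, 5.14 and 4.85 in WT, 5.93, 5.51 and 5.49 in Dgcr8 KO, against 5.86, 5.49 and 5.16 in Dicer KO. The arrays of the genotypes overlapped, and the log2 ratios of 0.47 and 0.33 had wide intervals (-0.01 to 0.95 and -0.15 to 0.81). Ifit1 was called higher in Dgcr8 KO in 4 of 23 other settings (SAM, array weights, the replicate block and without WT replicate 1) and in Dicer KO in 1, the replicate block. The Ifit and Mx clusters were all in the dimmest 25% of clusters. Ifit2, a relative of Ifit1, was called lower in Dgcr8 KO at a log2 ratio of -0.46 (limma adjusted p = 0.049), but its arrays overlapped WT and the call was lost in 15 of 23 other settings, among them on leaving out any single array other than Dgcr8 KO replicate 3. Isg20, a 3′ to 5′ exonuclease, gave log2 ratios of -0.14 and -0.06 and was not called.

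Rsad2 encodes viperin, which makes a chain-terminating ribonucleotide. It read 5.77, 5.29 and 5.59 in WT, 6.04, 6.14 and 6.07 in Dgcr8 KO, with 6.30, 6.01 and 5.97 in Dicer KO. All mutant arrays were above WT, with log2 ratios of 0.53 (limma adjusted p = 0.008) and 0.54 (adjusted p = 0.0067). Ifi35, an interferon-inducible partner of Nmi, read 6.72, 6.71 and 6.48 in WT, 7.59, 7.60 and 7.52 in Dgcr8 KO, and 7.5, 7.39 and 7.33 in the Dicer KO arrays. The rise was 1.91-fold in Dgcr8 KO (limma adjusted p = 1.1e-05) and 1.71-fold in Dicer KO (adjusted p = 3e-05). Bst2 (tetherin), which retains budding virions at the cell surface, went the other way, with 9.08, 9.15 and 9.16 in WT, 8.65, 8.58 and 8.57 in Dgcr8 KO, against 8.71, 8.68 and 8.66 in Dicer KO. Its log2 ratio to WT was -0.53 (limma adjusted p = 2.1e-05) and -0.44 (adjusted p = 5.6e-05), and no mutant array reached the WT levels.

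The Ifitm genes encode small membrane proteins that hinder virus entry and lie close together on chromosome 7 (GRCm38.p6, Ifitm2 at chr7:140954837-140959686, Ifitm1 at chr7:140967429-140969827 and Ifitm3 at chr7:141009590-141010744). They are close relatives, and whether their probes also detect other family members was not tested. Ifitm1 was higher in both mutants. Its cluster 10558769 read 11.86, 11.89 and 11.75 in WT, 12.66, 12.67 and 12.71 in Dgcr8 KO, with 12.45, 12.47 and 12.47 in Dicer KO. The log2 ratio to WT was 0.84 (limma adjusted p = 1.8e-06) in Dgcr8 KO and 0.63 (adjusted p = 8.5e-06) in Dicer KO, and the direct difference was 0.21 (adjusted p = 0.013), which was not called with each array centred on its median. Cluster 10570434 of Ifitm1 read 11.00, 11.17 and 11.00 in WT, 12.00, 12.03 and 12.04 in Dgcr8 KO, and 11.91, 11.94 and 11.85 in the Dicer KO arrays. It gave 0.97 and 0.84, both called, and its direct difference of 0.13 was not called.

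Ifitm2 was higher in Dgcr8 KO on each of its 3 clusters, with log2 ratios of 0.40, 0.31 and 0.43 (limma adjusted p = 0.00011, 0.0011 and 6.2e-05). In Dicer KO the same clusters gave -0.02, -0.09 and -0.09 and were not called, and the first of these turned to 0.03 with each array centred on its median. The direct difference of Dgcr8 KO from Dicer KO was 0.42, 0.39 and 0.52, called on every cluster. Ifitm3 read 11.76, 11.86 and 11.82 in WT, 12.24, 12.34 and 12.34 in Dgcr8 KO, against 11.03, 11.03 and 10.92 in Dicer KO. The 3 genotypes were fully apart, with WT between the mutants. The log2 ratio to WT was 0.50 ± 0.055 (SE, limma adjusted p = 8.7e-05) in Dgcr8 KO and -0.82 ± 0.055 (adjusted p = 2.7e-06) in Dicer KO, which left a direct difference of 1.32 (2.5-fold, 95% interval 1.2 to 1.44, adjusted p = 5.8e-07).

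Parp9, Dtx3l and Parp14 lie together on chromosome 16 (GRCm38.p6) and were higher in both mutants. Parp9 and Dtx3l form a complex of an ADP-ribosyltransferase and a ubiquitin ligase. Parp9 read 7.38, 7.36 and 7.5 in WT, 8.18, 8.17 and 8.21 in Dgcr8 KO, with 8.33, 8.17 and 8.24 in Dicer KO. Dtx3l read 7.23, 7.38 and 7.39 in WT, 8.05, 8.14 and 7.77 in Dgcr8 KO, and 8.13, 8.15 and 7.93 in the Dicer KO arrays. Both mutants were above WT on every array of both genes, and the mutants overlapped each other. The log2 ratios to WT were 0.77 (limma adjusted p = 8.1e-06) and 0.84 (adjusted p = 3.7e-06) for Parp9. For Dtx3l they were 0.65 (limma adjusted p = 0.00078) and 0.74 (adjusted p = 0.00032). Parp14, a mono-ADP-ribosyltransferase, read 7.16, 7.29 and 7.00 in WT, 7.84, 7.76 and 7.61 in Dgcr8 KO, against 7.73, 7.89 and 7.73 in Dicer KO, and gave 0.59 and 0.63 (limma adjusted p = 0.00066 and 0.00037). No direct difference between the mutants was called for any of the 3, with 95% intervals of -0.20 to 0.07 for Parp9, -0.31 to 0.15 for Dtx3l and -0.25 to 0.15 for Parp14. Usp18, which removes Isg15 from proteins, was dim and was not called against WT. The cluster shared by Isg15, the ubiquitin-like modifier, and Gm9706 gave log2 ratios of -0.06 and -0.22 and was not called (limma adjusted p = 0.754 and 0.191).

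Among the 44 member clusters, B2m differed most between the mutants. It encodes the invariant light chain of class I antigen-presenting molecules and read 7.77, 7.78 and 7.86 in WT, 7.44, 7.83 and 7.5 in Dgcr8 KO, with 9.12, 9.19 and 9.06 in Dicer KO. Dgcr8 KO overlapped WT, while Dicer KO stood above both by more than the spread of any group. The rise in Dicer KO was 2.5-fold (limma adjusted p = 3.9e-06), the log2 ratio of Dgcr8 KO to WT was -0.21 (adjusted p = 0.12, called lower in 3 of 24 other settings, among them without Dgcr8 KO replicate 2), and the direct difference was -1.53 (adjusted p = 5.3e-06).

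Psmb8, Psmb9 and Tap1 are neighbours within the major histocompatibility region of chromosome 17. Psmb8, a catalytic subunit of the immunoproteasome, read 6.26, 6.18 and 6.18 in WT, 6.56, 6.42 and 6.48 in Dgcr8 KO, and 6.5, 6.55 and 6.66 in the Dicer KO arrays. The small rise was called in both mutants, at log2 ratios of 0.28 (limma adjusted p = 0.0052) and 0.36 (adjusted p = 0.001). Psmb9, another such subunit, was called lower in Dicer KO at a log2 ratio of -0.23 (limma adjusted p = 0.044), a call lost in 14 of 24 other settings, among them without WT replicate 1, Dgcr8 KO replicate 2 or 3, or any single Dicer KO array. Tap1, a subunit of the peptide transporter, had the same deposited value of 6.96 on all 3 WT arrays, and read 6.72, 6.64 and 6.69 in Dgcr8 KO, against 7.36, 7.00 and 6.99 in Dicer KO. Its log2 ratio of -0.28 in Dgcr8 KO (limma adjusted p = 0.042) was lost in 13 of 24 settings, among them on leaving out any single WT or Dgcr8 KO array, and the direct difference was -0.44 (adjusted p = 0.0069).

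In the direct comparison of the mutants, 7 member clusters (5 genes) were higher in Dgcr8 KO and 6 were lower, beside 11.2% and 13.4% of all 23002 clusters. With each array centred on its median the split became 5 higher and 9 lower, and the share of higher calls among all called clusters moved from 45.5% to 32.2%. Above both of the other genotypes in Dgcr8 KO were 6 clusters (Irf9, Ifitm3, 1 of Ifitm1 and 3 of Ifitm2), beside 4.75% of all clusters. They are 13.6% of the member clusters but stand for 4 genes. All but Irf9 are the related Ifitm genes that lie close together on chromosome 7. Lower in Dgcr8 KO than in both was 1 cluster, Tap1, beside 5.15%. Higher in Dicer KO than in both WT and Dgcr8 KO were 5 clusters, namely Ifnar1, Ddx58, Mavs, Oasl1 and B2m, beside 8.19%. Lower in Dicer KO than in both was 1 cluster, Ifitm3, beside 5.66%. The median direct log2 difference was 0.01 over the members and 0.03 over all clusters. Usp18 was also called higher in Dgcr8 KO than in Dicer KO, by 0.28 (limma adjusted p = 0.04), with overlapping arrays and a call lost in 13 of 23 settings, among them without WT replicate 2 or 3, Dgcr8 KO replicate 1 or 3, or Dicer KO replicate 2 or 3.

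**Figure D3:**
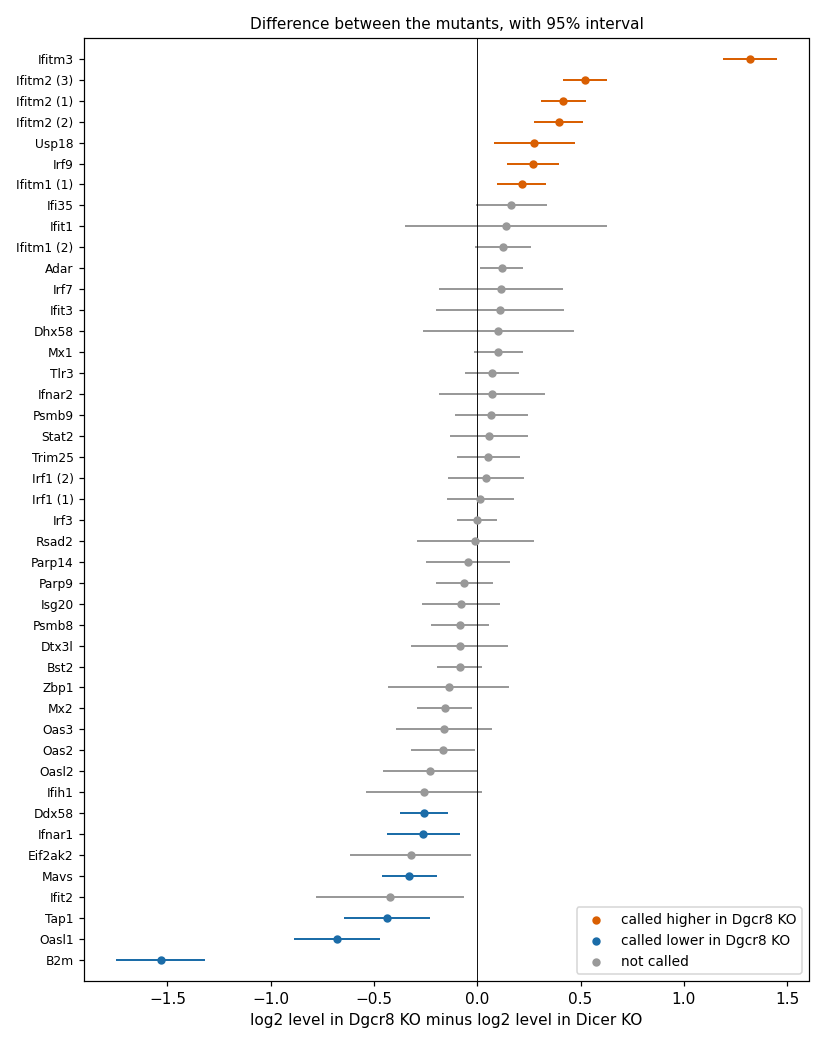
Each point is the log2 level in Dgcr8 KO minus that in Dicer KO for 1 member cluster (3 arrays each), with its 95% interval from limma, coloured by whether it was called higher in Dgcr8 KO (orange), lower (blue) or not (grey). Ifitm3 at 1.32 and B2m at -1.53 stand at the ends, and most intervals of the other clusters reach 0.

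The rest of the pathway was counted over lists of genes that are not members, also chosen with earlier results of these data known. Of 15 interferon clusters, 0 were called higher in either mutant by limma (0 also at an unadjusted p under 0.05 and 0 by SAM). Over all clusters 15.7% (Dgcr8 KO) and 17.8% (Dicer KO) were higher. Ifna14 alone (6.67%) was called lower in Dicer KO, at -0.48 (limma adjusted p = 0.013), beside 19.1% of all clusters. Ifnb1, the interferon that Irf3 induces first, read 4.86, 4.70 and 4.67 in WT, 4.67, 4.61 and 4.75 in Dgcr8 KO, with 4.67, 4.28 and 4.60 in Dicer KO. These levels overlapped and were dim, so a small change of Ifnb1 would not be seen. The clusters of Ifnk, Ifne, Ifna4, Ifna11, Ifna12 and Ifna13 were likewise in the dimmest 25% of all clusters, where a change is hard to see. Of 17 clusters of receptor-proximal signalling genes, Dgcr8 KO had 6 (35.3%) higher than WT and Dicer KO 11 (64.7%), beside 15.7% and 17.8% of all clusters, with 0 lower in either by limma (0 also at an unadjusted p under 0.05 and 0 by SAM). The kinase gene Jak2 had a log2 ratio of 1.58 in both mutants (limma adjusted p = 6.8e-06 and 5.4e-06). Jak1, which serves the type I receptor, gave 0.99 and 1.18 (limma adjusted p = 4.5e-06 and 1e-06). Irf2, an antagonist of Irf1, gave 0.61 and 1.02 (limma adjusted p = 0.0015 and 5e-05). Il10rb, a receptor chain of type III interferon and the neighbour of Ifnar1 and Ifnar2, was called in Dicer KO only, at 0.97 (limma adjusted p = 2.2e-05), and its direct difference was -0.75 (adjusted p = 0.00027).

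Sensors and adaptors outside the member list were counted next. Of 29 clusters, 8 (27.6%) were higher than WT and 6 (20.7%) lower in Dgcr8 KO, beside 15.7% and 17.3% of all clusters. Dicer KO had 10 (34.5%) higher and 7 (24.1%) lower, beside 17.8% and 19.1%, so the lower shares were near those of all clusters. Zc3hav1 encodes ZAP, a CpG-binding antiviral protein, and read 6.84, 6.97 and 6.92 in WT, 8.59, 8.59 and 8.57 in Dgcr8 KO, and 9.10, 9.09 and 9.03 in the Dicer KO arrays. The genotypes stood apart, at 3.2-fold and 4.48-fold WT (limma adjusted p = 3.1e-08 and 6.8e-09). Sting1, the adaptor of cytosolic DNA sensing, read 6.60, 6.39 and 6.35 in WT, 7.03, 6.99 and 6.93 in Dgcr8 KO, against 8.47, 8.57 and 8.54 in Dicer KO. Both mutants were above WT, Dicer KO by far the most, with log2 ratios of 0.54 and 2.08 (limma adjusted p = 0.00023 and 3.8e-08) and a direct difference of -1.55 (adjusted p = 7.4e-07). Aim2, a DNA sensor of inflammasomes, was called in Dicer KO at 0.76 (limma adjusted p = 9.9e-05) and not in Dgcr8 KO at 0.16. Rnf125, a ubiquitin ligase that targets RIG-I, gave 1.07 and 1.00 (limma adjusted p = 0.00018 and 0.00023).

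Of 41 clusters of other interferon-stimulated genes, the Dgcr8 KO arrays had 19 (46.3%) higher and the Dicer KO arrays 21 (51.2%), beside 15.7% and 17.8% of all clusters. In each mutant 2 (4.88%) were lower, beside 17.3% and 19.1%. Xaf1, a partner of the apoptosis inhibitor Xiap, read 5.90, 5.47 and 5.35 in WT, 7.23, 7.39 and 7.20 in Dgcr8 KO, with 8.65, 8.62 and 8.70 in Dicer KO. The genotypes were fully apart in the order WT, Dgcr8 KO and Dicer KO, at 3.25-fold and 8.47-fold WT (limma adjusted p = 6.7e-06 and 1.2e-07). Nmi, the partner of Ifi35, gave log2 ratios of 1.45 and 1.91 (limma adjusted p = 2.1e-05 and 2.8e-06), Ddx60, a helicase that acts with RIG-I, gave 1.16 and 1.84 (adjusted p = 4.3e-06 and 1.7e-07), and Oas1a, another synthetase of the Oas group, gave 0.89 and 1.43 (adjusted p = 0.00027 and 9.6e-06). Ddx60 had the same deposited value of 5.98 on all 3 Dgcr8 KO arrays. Of the antigen presentation genes outside the member list, 25 clusters stood for 7 genes and 19 of them were Nlrc5. In Dgcr8 KO 4 (16%) were higher and 0 lower by limma (0 also at an unadjusted p under 0.05 and 0 by SAM), and in Dicer KO 4 (16%) were higher and 3 (12.0%) lower. By cluster the higher shares were near the 15.7% and 17.8% of all clusters, but the 19 Nlrc5 clusters weigh heavily on them. By gene, 4 of the 7 were higher in each mutant, and a share by gene over all genes was not counted. Those higher were Tapbp (tapasin, which loads peptides) at 3.13-fold and 4.95-fold, the trimming peptidase Erap1 at 3.7-fold and 4.9-fold, and the proteasome activator subunits Psme2 at 1.98-fold and 2.03-fold and Psme1 at 1.62-fold in both, all called by limma. Tapbp had the same deposited value of 9.84 on all 3 Dgcr8 KO arrays.

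**Figure D4:**
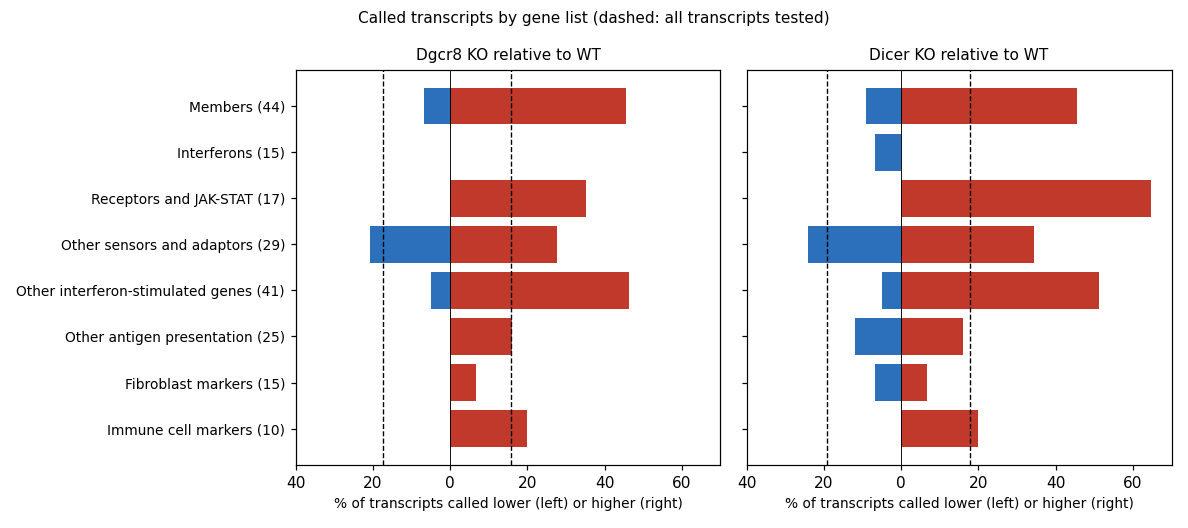
Bars give the percentage of the transcript clusters of each gene list (number of clusters in brackets) called lower (left, blue) or higher (right, red) than WT by limma, for Dgcr8 KO (left panel) and Dicer KO (right panel), and dashed lines mark the percentage over all 23002 clusters. The members reach 45.5% higher in Dgcr8 KO beside a dashed line at 15.7%, and no interferon cluster was called higher in either mutant. Several of the interferon clusters were dim, where a change is hard to see.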

How the data were processed

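Total RNA of the 9 cultures was hybridised to Affymetrix mouse gene 1.0 ST arrays. The deposited table holds 1 log2 value per transcript cluster and array, normalised by the authors with RMA according to the study's methods and with GCRMA according to the submitters' processing notes, so which of them made the values is not settled here. No scanner intensities were used. Of 35557 clusters, 23410 had a gene symbol in the platform annotation, 21789 of these had 1 symbol and 1621 had several. Clusters for miRNAs only (326), mitochondrial genes (4) and chromosome Y (78) were set aside, which left 23002. The study states these exclusions for its comparison of mRNAs with small RNAs and hairpins, and not for its test of expression. Depth does not apply to arrays, and the number of arrays limits the precision. No column was left without a sample.

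Each cluster was fitted with a mean per genotype over all 9 arrays with limma 3.58.1 in R 4.3.3 (lmFit and eBayes, 6 residual degrees of freedom), with Benjamini-Hochberg adjustment of the p-values over 23002 clusters, a cluster being called at an adjusted p under 0.05. Values beside ± are standard errors of log2 ratios. The step was tested on simulated data. Alternatives were SAM (the study's test, with 20 permutations of each pair of genotypes), other variance models and array weights, other scalings, other sets of transcripts, stricter thresholds, the replicate number as a block, and leaving out each array. Members and lists were chosen with earlier results of these data known. Members with a called log2 ratio of at least 0.58 in size, and 8 members fixed by name (Irf3, Mavs, Ddx58, Ifih1, Tlr3, Ifnar1, Ifnar2 and Eif2ak2), are given array by array, and other members where a statement turns on their arrays. Of the other lists, the 4 called transcripts with the largest ratio are named, together with Ifnb1. A further gene of the rule was not analysed here. Gene positions and promoters came from RefSeq (GRCm38.p6). Log2 levels of different clusters depend on their probes and were not compared with each other.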

Additional observations from a re-analysis of the deposited data

Results flagged for a closer look

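Ifitm3 was called in opposite directions against WT in the mutants, 0.50 on the log2 scale for Dgcr8 KO and -0.82 for Dicer KO. The difference between the mutants was itself tested and came to 1.32 on the log2 scale (limma adjusted p = 5.8e-07). All 3 Dgcr8 KO arrays were above, and all 3 Dicer KO arrays below, every WT array.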

How the results depend on the processing

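No member ratio that was called changed sign in any setting. Of 23 member calls in Dgcr8 KO against WT 13 held in every setting, as did 16 of 24 in Dicer KO and 3 of 13 in the direct contrast. A minimum of 1.5-fold changed most counts, leaving 13 higher and 0 lower in Dgcr8 KO, 1 lower in Dicer KO, and 1 higher and 2 lower in the direct contrast. An adjusted p under 0.01 left 1 lower in Dgcr8 KO and 2 lower in Dicer KO. With all 35557 clusters tested, 1 was lower in Dgcr8 KO. With arrays centred on their medians, 2 were lower in Dicer KO. SAM gave 2 lower in Dicer KO and 10 lower in the direct contrast. Leaving out each array in turn gave 20 to 21 higher and 1 to 2 lower in Dgcr8 KO, 20 to 21 higher and 2 to 4 lower in Dicer KO, and 6 to 7 higher and 5 to 7 lower in the direct contrast. The Dgcr8 KO count fell from 3 lower to 1 without WT replicate 1, 2 or 3 or Dgcr8 KO replicate 1, and the Dicer KO count fell from 4 lower to 2 without Dicer KO replicate 2. The cause of these changes was not tested. Replicate numbers did not pair the samples (correlations of deviations from -0.2 to 0.344). With the replicate number as a block, 21 were higher and 3 lower in Dgcr8 KO, 21 higher and 4 lower in Dicer KO, and 7 higher and 7 lower in the direct contrast. Low signal limits the 9 clusters in the dimmest 25%.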
